A study of Mus musculus with 10 samples.

Results

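The 10 apolipoprotein genes described here are Apoa1, Apoa2, Apoa4, Apoa5, Apob, Apoc1, Apoc3, Apoe, Apoh and Apom, whose proteins hepatocytes secrete into the blood. They were taken by symbol from the 55291 genes of the count table, and all 10 were found there and passed the filter on low counts that left 17015 genes to test. The data are bulk RNA-seq of 10 livers of female mice aged 16 to 20 weeks, in 4 groups. All mice carried a Cas9 gene held silent by a loxP-flanked stop cassette, and all received an AAV8 virus with a guide RNA and a Cre gene under the hepatocyte promoter TBG. The guide was a non-targeting control (NTC) or targeted Bap1 (sgBap1), the gene of a deubiquitinase that removes ubiquitin from histone H2A. At 10 days the mice received olive oil vehicle (Veh) or CCl4, a solvent that hepatocytes around the central veins turn into a toxic radical. CCl4 was diluted 1 to 9 in olive oil and injected at 10 µL for each g of body weight, and livers were taken 48 hours later. CCl4 was given to 3 NTC and 3 sgBap1 mice and vehicle to 2 of each, and each library is taken here as 1 mouse since the labels number replicates and do not name animals. Cas9 is switched on only in cells that the virus reached and that express TBG-Cre, so a liver of the sgBap1 group still holds cells with intact Bap1, and every value is a mean over the whole tissue.

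Apolipoproteins are the proteins on the surface of lipoproteins, the particles that carry triglyceride and cholesterol through the blood. Apob is the large protein around which the liver builds very-low-density lipoprotein, Apoa1 and Apoa2 form the frame of high-density lipoprotein, and the smaller exchangeable members move between particles and steer lipases and receptors. In hepatocytes many of these genes are read under HNF4 and C/EBP factors and nuclear receptors, and several sit side by side in the genome.

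The members lie in 2 clusters and at 4 single positions of the mouse genome (GRCm38, GENCODE vM21). Apoa1 (chr9:46228580-46230466, + strand), Apoc3 (chr9:46232933-46235636, - strand), Apoa4 (chr9:46240696-46243459, + strand) and Apoa5 (chr9:46268633-46271919, + strand) fall within 43340 bases. Apoc1 (chr7:19689481-19692660) and Apoe (chr7:19696109-19699188), both on the - strand, are 3448 bases apart in a cluster of 27610 bases with Apoc4 and Apoc2. Apoa2 is at chr1:171225054-171226379 (+), Apob at chr12:7977648-8016835 (+), Apoh at chr11:108343354-108414396 (+) and Apom at chr17:35128997-35132050 (-). No stretch of 50 bases in the transcripts of the 10 members is shared with another gene. Apoh overlaps Gm11656 on its own strand, but in GENCODE vM21 their transcripts share no stretch of 50 bases, the length of a read. The counts used GENCODE vM25, whose transcripts were not compared. The genes that overlap Apoa4, Apoa5 and, beside Gm11656, Apoh lie on the other strand, and the libraries were stranded.

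Promoter sequence was at hand in RefSeq (GRCm38.p6) for 8 of the 10 members. Of these, 4 are shown because their RNA went different ways after CCl4, namely Apoa2, which fell most, Apoh, which also fell, Apoa4, which rose in NTC livers, and Apob, which did not pass the test. Capitals mark matches to TATAAA (the box that positions transcription), CCAAT (the box bound by NF-Y), AGGTCA (bound by nuclear receptors), CAAAGNNCA (an HNF4 core) and TTGCNNAA (a C/EBP core), searched on both strands. No 2 matches overlap. Each sequence is on the + strand, the strand of its gene, and runs up to the base before the first GENCODE transcript start that falls in the window.
Apoa2, chr1:171224804-171225053: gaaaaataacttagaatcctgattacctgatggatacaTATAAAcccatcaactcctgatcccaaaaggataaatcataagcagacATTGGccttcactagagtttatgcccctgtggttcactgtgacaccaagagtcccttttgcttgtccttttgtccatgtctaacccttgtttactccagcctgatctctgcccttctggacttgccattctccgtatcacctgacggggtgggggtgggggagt
Apoh, chr11:108395047-108395292: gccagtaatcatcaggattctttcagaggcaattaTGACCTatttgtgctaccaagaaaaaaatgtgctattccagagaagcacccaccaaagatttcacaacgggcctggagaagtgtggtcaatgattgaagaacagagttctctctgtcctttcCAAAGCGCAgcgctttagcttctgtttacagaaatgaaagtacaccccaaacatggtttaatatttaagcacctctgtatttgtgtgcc
Apoa4, chr9:46240594-46240695: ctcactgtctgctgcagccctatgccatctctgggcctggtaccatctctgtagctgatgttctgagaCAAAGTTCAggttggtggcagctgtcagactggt
Apob, chr12:7977427-7977647: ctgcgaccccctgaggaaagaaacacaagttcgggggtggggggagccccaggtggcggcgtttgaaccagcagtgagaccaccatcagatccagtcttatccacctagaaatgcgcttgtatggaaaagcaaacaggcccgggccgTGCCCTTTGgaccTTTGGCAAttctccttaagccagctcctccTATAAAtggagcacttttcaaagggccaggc
The HNF4 core was found in 3 of the 8 member promoters, those of Apoa4, Apob and Apoh, against 5.49% of 32851 promoters when the 250 bases before each start were searched. These 3 genes went different ways after CCl4, as described below. TATAAA was found in 3 of the 8 (Apoa2, Apoa5 and Apob) against 12.4% of all promoters, CCAAT in 1 (Apoa2) against 33.8%, AGGTCA in 1 (Apoh) against 14% and TTGCNNAA in 1 (Apob) against 9.56%. In Apoa2 the TATAAA match ran from -212 to -207 of the RefSeq start, farther out than such a box usually lies, while those of Apoa5 (-56 to -51) and Apob (-60 to -55) lay nearer. A match describes the letters in this window and is no measurement of binding. The RefSeq start lay 249 bases downstream of the GENCODE start for Apom and 148 for Apoa4, and at most 50 from it for the others. Much of the 250 bases searched for Apom and Apoa4 is therefore transcript in GENCODE. The Apoh window lies inside the gene span given above, which begins farther upstream.

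The libraries held 3.30e+07 to 5.22e+07 estimated counts, and all member values below are CPM (counts scaled to library size, with TMM factors that assume that most genes do not differ). Bap1, the targeted gene, was at 34.8 CPM in both NTC-Veh mice against 17.5 and 19.5 with sgBap1, and at 29.5 to 31.5 in the CCl4-treated NTC mice against 17 to 21.8 with sgBap1. It was lower with sgBap1 under vehicle (log2 fold change -0.91, SE 0.12, edgeR quasi-likelihood test, adjusted p = 0.0208) and under CCl4 (-0.65, SE 0.096, adjusted p = 0.0295). These calls held in 7 and 6 of 9 alternative fits, and in 6 and 4 of the 10 fits that left out a mouse. The hepatocyte markers Alb, Ttr, Trf, Ahsg, Cps1, Hnf4a and Serpina1c were abundant in every liver. The library of sgBap1-CCl4 replicate 2 stood apart, with Adipoq at 36.4 CPM, Cfd at 144 CPM and all 5 fat-cell markers detected, while no other library had a fat-cell marker above 0.0425 CPM. Values without that library are given for the members, for the lists and for their spread.

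Together the 10 genes made up a large share of hepatic RNA, and this share was smaller in every CCl4-treated liver than in every vehicle-treated liver. In NTC mice they held 4.06% and 4.25% of all counts under vehicle and 2.74% to 2.83% after CCl4. In sgBap1 mice they held 3.56% and 3.99% under vehicle and 2.13% to 2.74% after CCl4, where replicate 2 had the lowest share. Counting error alone gave Wilson 95% intervals no wider than 0.0133 percentage points, so the spread between livers was the larger error, and these intervals cover counting error only. The make-up of the share also differed. Apob held 9.94% and 13.4% of the members' counts in NTC-Veh but 18.9% to 21.5% in NTC-CCl4, and Apoa2 went from 11.3% and 11.9% to 5.18% to 5.33%. Apoa4 held 0.603% and 1.32% in NTC-Veh and 6.23% to 8.72% in NTC-CCl4. The 7 hepatocyte markers together held 12.2% and 13.9% of counts in NTC-Veh and 11.8% to 13% in NTC-CCl4, and these groups overlapped. Alb was most of that sum, with a mean of 104551 of 159575 CPM in NTC-Veh, and single markers differed. From NTC-Veh to NTC-CCl4 the mean of Trf went from 22147 to 27206 CPM and that of Cps1 from 4515 to 1329. In NTC livers 4 of the 7 passed as lower and 0 as higher, against 26.6% and 27.4% of all genes. In sgBap1 mice these markers held 10.8% of counts in both vehicle livers and 11.4% to 13.2% after CCl4, apart and higher. No test was run on these shares.

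**Figure D1:**
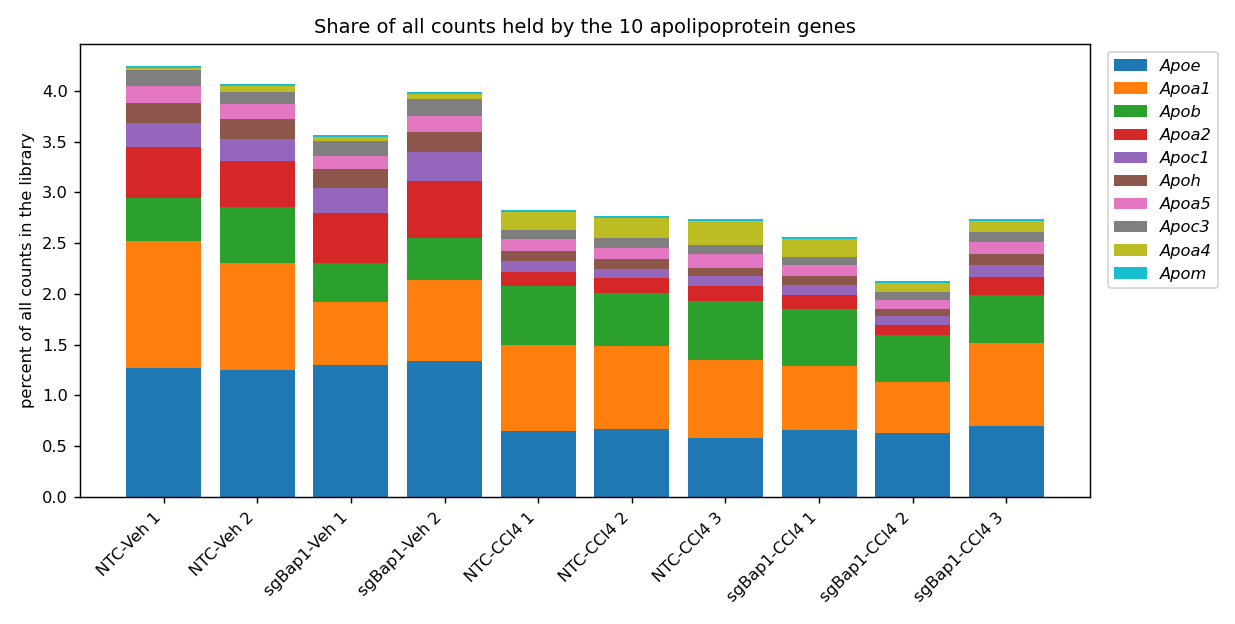
Stacked bars give the percent of all counts in each of the 10 libraries that the 10 apolipoprotein genes held, 1 colour per gene. Vehicle livers reached 3.56% to 4.25% and CCl4 livers 2.13% to 2.83%, with a thinner Apoa2 band and a thicker Apoa4 band after CCl4.

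Levels of different genes were compared only per length, as CPM per kb of the principal transcript. In NTC-Veh the order ran from Apoa1 (13659 ± 2375, SD, n = 2) through Apoa2 (11397 ± 1379.8) and Apoe (10989 ± 737) to Apoc1 (5095 ± 618), Apoc3 (3203 ± 653), Apoh (2080.2 ± 132), Apoa5 (765 ± 131), Apob (422 ± 51.1), Apoa4 (264 ± 119) and Apom (246 ± 12.3). Apoa1 overlapped with Apoa2, Apoa2 with Apoe, and Apoa4 with Apom, and every other neighbour in this order stood apart from the next. In sgBap1-Veh, Apoa2 (12438 ± 1631, n = 2) and Apoe (11423 ± 538) came before Apoa1 (8286 ± 1633). In NTC-CCl4, Apoa1 (6899 ± 469, n = 3) led, followed by Apoe (3968 ± 327) and Apoa2 (2471 ± 26), and Apoa4 (988 ± 144) stood above Apoh (679.9 ± 46.8), Apoa5 (429 ± 28.8) and Apob (354 ± 18.6). In sgBap1-CCl4, Apoa4 (588 ± 242, n = 3) overlapped with both Apoh (666 ± 166) and Apoa5 (371 ± 89.7). Apom was the lowest member in all 4 groups, at 197 to 246 CPM per kb.

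**Figure D2:**
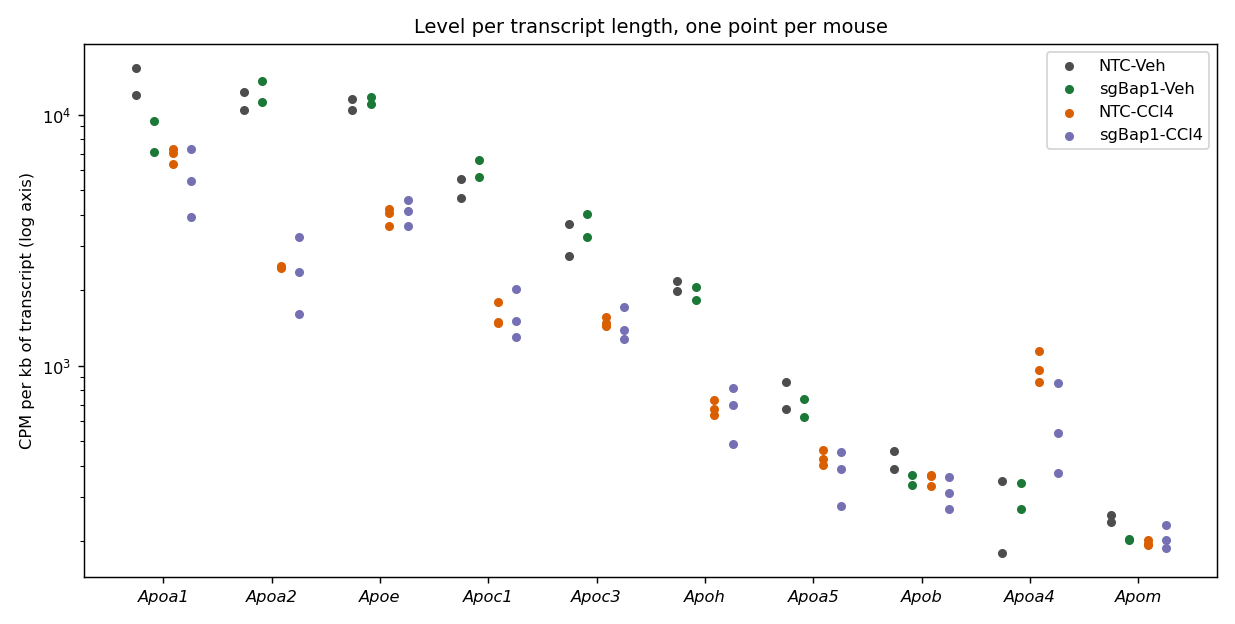
CPM per kb of transcript on a log axis for each apolipoprotein gene, 1 point per mouse, coloured by group and ordered by the NTC-Veh mean. Apoa4 is the gene that lies higher in the CCl4 groups, while the points of Apob and of Apom lie close together in all 4 groups.

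The first question was how CCl4 injury changed these genes in livers with intact Bap1. In NTC livers 9 of the 10 members passed the test, against 53.9% of all tested genes. Of these, 8 fell (Apoa1, Apoa2, Apoa5, Apoc1, Apoc3, Apoe, Apoh and Apom), against 26.6% of all genes, and 1 rose (Apoa4), against 27.4%. The median log2 fold change of the members was -1.04, beside 0.03 over all tested genes. All 10 members had groups that did not overlap between the NTC-CCl4 and NTC-Veh mice, against 71.7% of all genes. In sgBap1 livers CCl4 lowered 6 of the 10 (Apoa2, Apoa5, Apoc1, Apoc3, Apoe and Apoh) and raised none, against 28% and 29% of all genes, or 57% in either direction. The mice of 7 members did not overlap there, against 72.2% of all genes. Without replicate 2 of sgBap1-CCl4, 7 passed, the 6 that fell and Apoa4, which rose, against 52.6% of all genes. With all mice the median log2 fold change of the members in sgBap1 livers was -1.10, beside 0.04 over all genes. Without replicate 2 it was -0.97, beside 0.02. Since these are whole livers, fewer hepatocytes and less RNA per hepatocyte cannot be told apart in any of these results.

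The scale bears on the members that moved least. With the libraries scaled by their size alone, the median log2 fold change of all tested genes after CCl4 was 0.50 in NTC and 0.52 in sgBap1 livers in place of 0.03 and 0.04, and the share of called genes that were higher was 80.5% and 78.3% in place of 50.8% and 50.9%. On that scale the members' median was -0.56 and -0.63. In NTC livers 7 of 10 passed the test (62.1% of all genes), all of them lower except Apoa4. In sgBap1 livers 8 passed (64.7%), all of them lower except Apoa4 and Apom. Most of all genes that passed were higher, as just given. The signs of Apob and of Apom in NTC livers turned. All fold changes below are relative to the TMM scale.

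Apoa2, the second structural protein of high-density lipoprotein, fell most of the 10 members on the TMM scale in both genotypes. It was at 6409 and 5398 CPM in NTC-Veh, 5845 and 7040.4 CPM in sgBap1-Veh, 1295, 1278 and 1268 in NTC-CCl4, and 1227, 831 and 1684 in sgBap1-CCl4. Every CCl4 liver lay far below every vehicle liver. The log2 fold change was -2.21 (SE 0.25, 4.61-fold lower, adjusted p = 4.46e-05) in NTC and -2.37 (SE 0.25, 5.17-fold lower, adjusted p = 2.73e-05) in sgBap1 livers, and -2.15 (adjusted p = 8.39e-06) in the latter without replicate 2. The call held in all 9 alternatives and all 10 fits that left out a mouse, in both genotypes.

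Apoa1, the main protein of high-density lipoprotein, fell less. Its vehicle groups did not overlap, as for 40.9% of all genes, but the difference between them did not pass the test, as given below. It was at 15875 and 12399 CPM in NTC-Veh, 7381 and 9771 CPM in sgBap1-Veh, 7535, 7289 and 6598 in NTC-CCl4, and 5654, 4057 and 7578 in sgBap1-CCl4. The NTC-Veh mice lay above all others, and the mice of the other 3 groups overlapped in part. In NTC livers the log2 fold change after CCl4 was -0.99 (SE 0.26, 1.98-fold lower, adjusted p = 0.00797), and this call was lost without NTC-Veh replicate 1 (-0.80, adjusted p = 0.0723). In sgBap1 livers it was -0.57 (SE 0.26, adjusted p = 0.0793), which did not pass, and -0.37 (adjusted p = 0.146) without sgBap1-CCl4 replicate 2. It passed with the DESeq2 Wald test (adjusted p = 0.023) and without sgBap1-CCl4 replicate 3 (-0.83, adjusted p = 0.0141).

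Apom, which carries sphingosine-1-phosphate on high-density lipoprotein, differed least among the members that passed. It was at 259 and 241 CPM in NTC-Veh, 204 and 207 CPM in sgBap1-Veh, 198, 205 and 196 in NTC-CCl4, and 205, 189 and 234 in sgBap1-CCl4. As for Apoa1, only the NTC-Veh mice stood above the rest. The log2 fold change after CCl4 was -0.32 (SE 0.10, 1.25-fold lower, adjusted p = 0.0227) in NTC livers. By library size alone it was 0.15 (adjusted p = 0.146), and the call was also lost in 4 of the 10 fits without a mouse, those without NTC-Veh replicate 1 or 2 (-0.27 and -0.37, adjusted p = 0.136 and 0.0522) and without NTC-CCl4 replicate 1 or 3 (-0.32 and -0.31, adjusted p = 0.0622 and 0.0644). In sgBap1 livers it was 0.024 (SE 0.10, adjusted p = 0.859), and 0.50 (adjusted p = 0.000513) by library size alone.

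**Figure D3:**
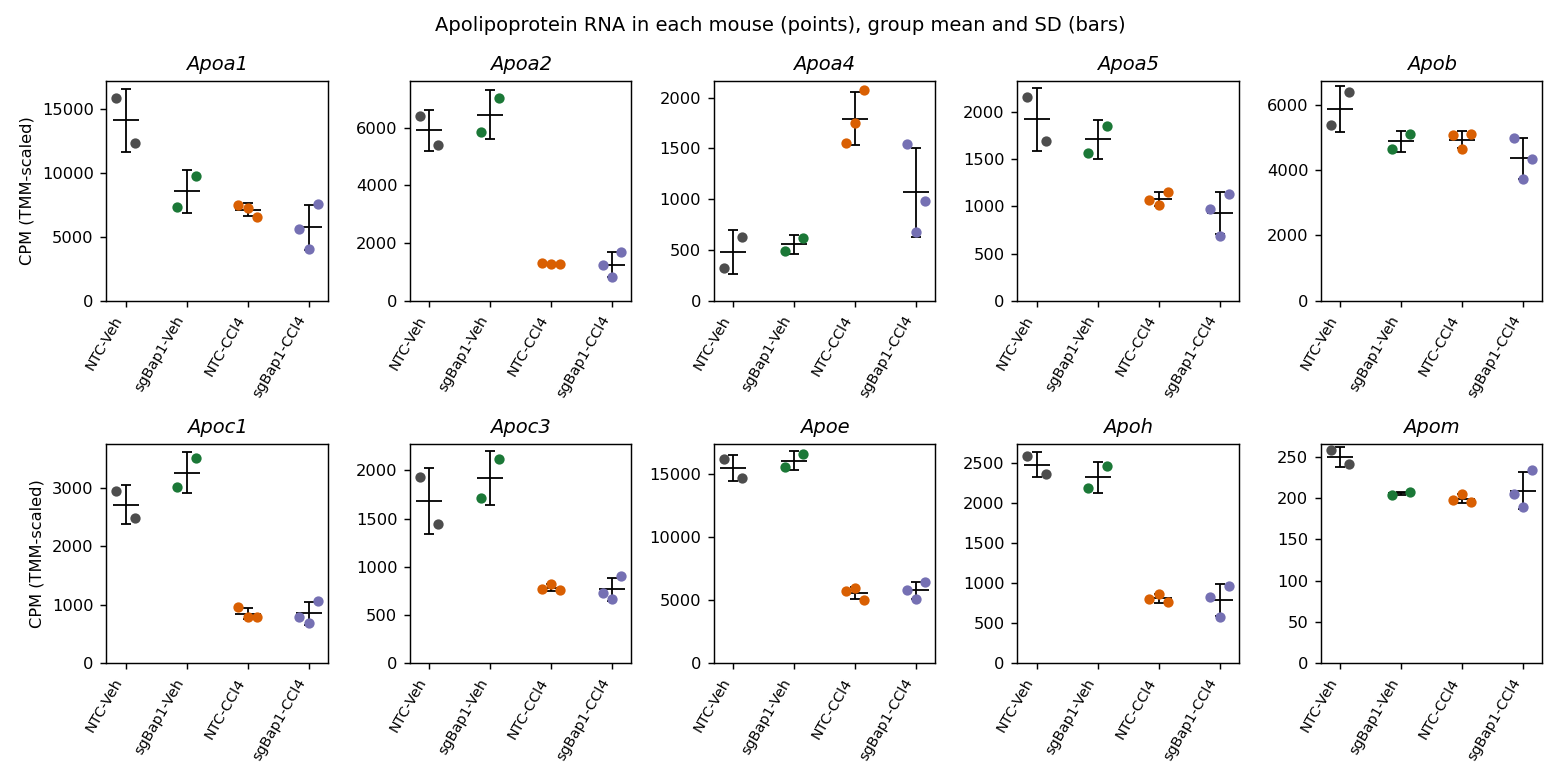
CPM of each apolipoprotein gene in every mouse (points), with the group mean and SD as bars, in 10 panels whose axes start at 0. In NTC-CCl4 the Apoa2 mice lie at 1268 to 1295 CPM against 5398 and 6409 in NTC-Veh, and the Apoa4 mice at 1557 to 2074 against 326 and 631.

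Apoc1, Apoc3 and Apoa5 act on the handling of triglyceride-rich particles. Apoc1 and Apoc3 slow lipolysis and uptake of these particles, while Apoa5 promotes lipolysis. Apoc1 was at 2943 and 2478 CPM in NTC-Veh, 3013 and 3499.9 CPM in sgBap1-Veh, 959, 786 and 797 in NTC-CCl4, and 799, 694 and 1073 in sgBap1-CCl4. No CCl4 mouse came near a vehicle mouse. Its log2 fold change was -1.68 (SE 0.19, 3.20-fold lower, adjusted p = 5.13e-05) in NTC and -1.93 (SE 0.19, 3.81-fold lower, adjusted p = 2.02e-05) in sgBap1 livers.

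Apoc3 was at 1927 and 1442 CPM in NTC-Veh, 1719 and 2117 CPM in sgBap1-Veh, 776, 823 and 758 in NTC-CCl4, and 729, 669 and 905 in sgBap1-CCl4. It fell by 1.10 on the log2 scale (SE 0.17, 2.14-fold lower, adjusted p = 0.000405) in NTC and by 1.32 (SE 0.17, 2.50-fold lower, adjusted p = 0.000113) in sgBap1 livers. Its CCl4 groups lay close together in both genotypes, apart from every vehicle mouse.

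Apoa5 fell less than its neighbours with a role in lipolysis. It was at 2157 and 1691 CPM in NTC-Veh, 1568 and 1858 CPM in sgBap1-Veh, 1070.2, 1013 and 1156 in NTC-CCl4, and 970.4, 691 and 1137 in sgBap1-CCl4. The log2 fold changes were -0.83 (SE 0.20, 1.78-fold lower, adjusted p = 0.00553) in NTC and -0.88 (SE 0.20, 1.84-fold lower, adjusted p = 0.00394) in sgBap1 livers. In NTC livers the call was lost without NTC-Veh replicate 1 (-0.65, adjusted p = 0.0628) and by library size alone (-0.35, adjusted p = 0.074), and in sgBap1 livers it held in all 9 alternatives and all 10 fits without a mouse.

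Apoe, the ligand by which remnant particles bind receptors of the LDL receptor family, held the largest share of the members' counts in both vehicle groups. It was at 16206 and 14738 CPM in NTC-Veh, 15548 and 16619.7 CPM in sgBap1-Veh, 5741, 5951 and 5069 in NTC-CCl4, and 5839, 5093 and 6422 in sgBap1-CCl4. Within each treatment the genotypes overlapped, and the treatments were far apart. The log2 fold change was -1.47 (SE 0.17, 2.77-fold lower, adjusted p = 5.48e-05) in NTC and -1.48 (SE 0.17, 2.78-fold lower, adjusted p = 5.05e-05) in sgBap1 livers.

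Macrophages also express Apoe and Apoc1, and most of their markers moved the other way after CCl4. The 11 macrophage markers summed to 183 to 268 CPM in NTC-Veh and 974 to 1361 after CCl4, and with sgBap1 to 367 to 513 and 920.2 to 1273, with none of them at 0 in a group. Of the 11, 8 rose and none fell in NTC livers, against 27.4% and 26.6% of all genes. In sgBap1 livers 7 rose and 2 fell, against 29% and 28%. There the mean of Clec4f went from 143 to 58.5 CPM and that of Timd4 from 12.4 to 5.68. In NTC livers Clec4f went from 75.2 to 63.2 CPM. The part of macrophage RNA in the Apoe and Apoc1 levels was not tested.

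Apoh, also called beta-2-glycoprotein I, binds phospholipids and is mostly free in plasma. It was at 2587 and 2364 CPM in NTC-Veh, 2182 and 2456 CPM in sgBap1-Veh, 800.3, 869 and 758 in NTC-CCl4, and 828, 579 and 969 in sgBap1-CCl4. Its log2 fold change was -1.61 (SE 0.19, 3.06-fold lower, adjusted p = 6.47e-05) in NTC and -1.55 (SE 0.19, 2.93-fold lower, adjusted p = 7.89e-05) in sgBap1 livers. The calls of Apoc1, Apoc3, Apoe and Apoh held in both genotypes in all 9 alternatives and all 10 fits without a mouse. Without sgBap1-CCl4 replicate 2 the falls in sgBap1 livers were -1.80, -1.23, -1.39 and -1.37 in that order, while Apoa5 was at -0.70, Apob at -0.063 and Apom at 0.092.

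Apob, the structural protein of very-low-density lipoprotein and the longest transcript of the members, did not pass the test. It was at 5375 and 6382 CPM in NTC-Veh, 4649 and 5116 CPM in sgBap1-Veh, 5066, 4638 and 5107 in NTC-CCl4, and 5002, 3745 and 4339 in sgBap1-CCl4. The NTC-Veh mice were above all others by little, and the other groups overlapped. The log2 fold change after CCl4 was -0.25 (95% interval -0.63 to 0.12, adjusted p = 0.235) in NTC and -0.16 (95% interval -0.54 to 0.21, adjusted p = 0.436) in sgBap1 livers. By library size alone the values were 0.22 (adjusted p = 0.215) and 0.31 (adjusted p = 0.0819).

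Apoa4, an exchangeable apolipoprotein made by the intestine and, in mice, by the liver, was the member that rose. It was at 326 and 631 CPM in NTC-Veh, 489 and 620.5 CPM in sgBap1-Veh, 1557, 1749.9 and 2074 in NTC-CCl4, and 1543, 679 and 982 in sgBap1-CCl4. All CCl4 mice lay above all vehicle mice, although sgBap1-CCl4 replicate 2 did so by little, and the 3 sgBap1-CCl4 mice lay below every NTC-CCl4 mouse. In NTC livers the log2 fold change was 1.91 (SE 0.38, 3.75-fold higher, adjusted p = 0.00234), which held in all 9 alternatives and all 10 fits without a mouse. In sgBap1 livers it was 0.95 (SE 0.37, 1.93-fold higher, adjusted p = 0.0507), just outside the threshold. It was inside the threshold in 3 of 9 alternatives, the DESeq2 Wald test (adjusted p = 0.0475), limma-voom (adjusted p = 0.0496) and library size alone (1.41, adjusted p = 0.00945), and in 3 of 10 fits without a mouse. Without replicate 2 of sgBap1-CCl4 it was 1.19 (SE 0.33, adjusted p = 0.0176), and without NTC-Veh replicate 1 or 2 it stayed at 0.95 with an adjusted p of 0.0327 and 0.0326.

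Apoa4 and its neighbours on chromosome 9 did not move together. Apoa4 stood at 2.06 and 5.09 per 100 CPM of Apoa1 in NTC-Veh and 20.7 to 31.4 in NTC-CCl4. In the sgBap1 groups the ratio was 6.62 and 6.35 under vehicle and 13 to 27.3 under CCl4. Apoc3, which lies between Apoa1 and Apoa4, fell in both genotypes, as did Apoa5 on the far side. On chromosome 7, Apoe and Apoc1 both fell, at -1.47 (SE 0.17) and -1.68 (SE 0.19) in NTC and -1.48 (SE 0.17) and -1.93 (SE 0.19) in sgBap1 livers, and the difference between the genes was not tested. Of the enterocyte markers, which would show intestinal RNA, Alpi was at 0 in every library and Vil1 was at 0.781 CPM or less, while Fabp2, which also has RNA in these livers, was at 103 and 103 CPM in NTC-Veh and 54 to 68.3 in NTC-CCl4.

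**Figure D4:**
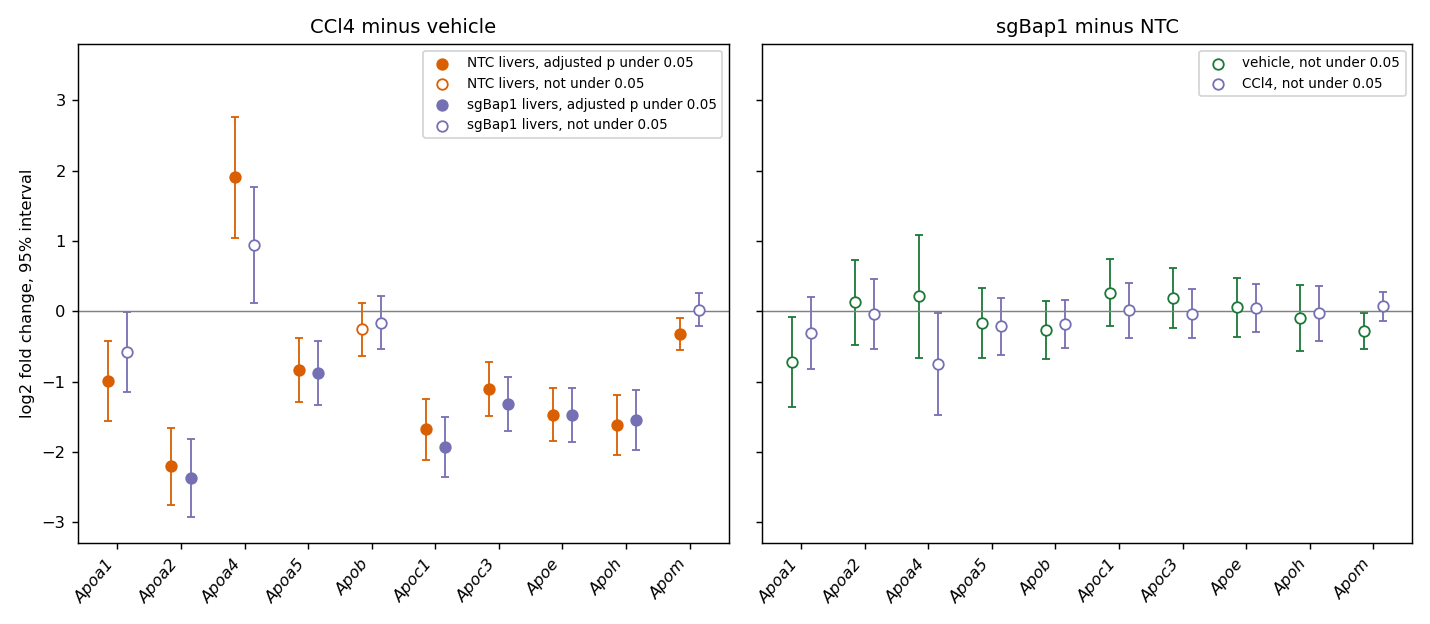
Log2 fold change of each apolipoprotein gene with its 95% interval, for CCl4 minus vehicle in both genotypes (left) and sgBap1 minus NTC under both treatments (right), with filled points where the adjusted p was under 0.05. After CCl4 the points of Apoa2 lie near -2.2 to -2.4 and Apoa4 is above 0, while no point on the right is filled.

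The second question was whether the Bap1 guide changed these genes, in comparisons that reuse the mice of those above. Under vehicle 0 of the 10 members passed edgeR's quasi-likelihood test, against 0.406% of all genes, and 0 passed DESeq2's Wald test or limma-voom. At an unadjusted p under 0.05 there were 2, Apoa1 and Apom, against 12.3% of all genes. The sgBap1-Veh mice stood apart from the NTC-Veh mice in 4 members, against 40.9% of all genes, with Apoa1, Apob and Apom lower (19.2% of all genes) and Apoc1 higher (21.7%). The median log2 fold change was -0.02, beside 0.02 over all genes.

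Apoa1 had the largest difference between the vehicle groups, at -0.72 (95% interval -1.35 to -0.088, 1.65-fold lower, adjusted p = 0.337), with 7381 and 9771 CPM in sgBap1-Veh against 15875 and 12399. Apom was at -0.28 (95% interval -0.53 to -0.025, adjusted p = 0.355). Apoe was at 0.056 (95% interval -0.37 to 0.48) and Apoa2 at 0.13 (95% interval -0.48 to 0.73). The intervals of Apoa1 and Apom lie below 0, but neither passed after adjustment over all genes, and the intervals of the others do not show that the genotypes were alike.

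Under CCl4, 0 of the 10 members again passed edgeR's quasi-likelihood test, against 0.329% of all genes, and 0 passed DESeq2's Wald test or limma-voom. Apoa4 alone was under 0.05 unadjusted, against 14% of all genes, and it was also the 1 member whose sgBap1-CCl4 and NTC-CCl4 mice did not overlap, against 20.2% of all genes. Its log2 fold change was -0.75 (95% interval -1.47 to -0.029, 1.68-fold lower, adjusted p = 0.339). Without replicate 2 it was -0.51 (adjusted p = 0.621). The other 9 members lay between -0.31 (Apoa1, 95% interval -0.83 to 0.21) and 0.069 (Apom, 95% interval -0.14 to 0.28). Without replicate 2 these 9 lay between -0.11 (Apoa1) and 0.19 (Apoa2).

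The difference between the CCl4 effects of the 2 genotypes was tested as an interaction, and 0 of the 10 members passed. With edgeR 0 of all 17015 genes passed (a share of 0%), and 1764 had an unadjusted p under 0.05. DESeq2's Wald test called 420 genes and limma-voom 0, none of them members. Apom was the 1 member under 0.05 unadjusted, against 10.4% of all genes, at 0.35 (95% interval 0.019 to 0.67, adjusted p = 0.447). For Apoa4, which passed the test in NTC livers and not in sgBap1 livers, the CCl4 effect was lower by 0.96 on the log2 scale in sgBap1 livers (95% interval -2.10 to 0.17, adjusted p = 0.573). For Apoa1 the difference was 0.41 (95% interval -0.40 to 1.23, adjusted p = 0.774), and for Apoe it was -0.0057 (95% interval -0.55 to 0.54). Without sgBap1-CCl4 replicate 2 the interaction was 0.61 for Apoa1 (unadjusted p = 0.0489 and adjusted p = 0.468, edgeR), 0.41 for Apom (0.011 and 0.27) and -0.72 for Apoa4 (adjusted p = 0.652). The members whose call differed between genotypes were therefore not shown to respond differently.

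Mice of the sgBap1-CCl4 group varied more than those of the NTC-CCl4 group in the members. The SD of log2 CPM between the 3 NTC-CCl4 mice was 0.015 for Apoa2, 0.10 for Apoa1 and 0.21 for Apoa4. In sgBap1-CCl4 it was 0.51, 0.45 and 0.59 for the same genes, which are those that varied most there. The difference was smaller for Apoe (0.12 and 0.17), Apob (0.077 and 0.21), Apom (0.036 and 0.15) and Apoc3 (0.061 and 0.22). The median SD over the 1452 tested genes with a mean of at least 100 CPM was 0.10 and 0.15 in these groups. Without replicate 2 the SD between the 2 remaining sgBap1-CCl4 mice was 0.32 for Apoa2, 0.30 for Apoa1 and 0.46 for Apoa4, beside a median of 0.088. The 2 NTC-Veh mice varied more than the sgBap1-CCl4 group with all its mice for Apoa4 (0.67) and Apoc3 (0.30). They varied less for the other members. Replicate 2 was the lowest sgBap1-CCl4 mouse for all 10 members, and it was also the library with fat-cell RNA, whose part in these values was not tested.

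Profiles over the 10 mice were compared by the root mean square difference of log2 CPM, centred on each gene's mean. For this, as for the SD of log2 CPM above, 0.5 CPM was added to each value before the log. By this measure Apoe and Apoh were each other's nearest member (0.13), as were Apob and Apom (0.17) and Apoa1 and Apoa5 (0.21). Apoa4 was the farthest member from 7 of the other 9, Apoa2 from Apob and Apom, and its own closest member, Apob, was 0.89 away. Among all other tested genes the closest profile to Apoe was that of Rnf167 (0.050), to Apoc3 Pex11g (0.055), to Apob Zswim5 (0.064), to Apom 2810459M11Rik (0.071) and to Apoh Masp2 (0.077). Itih1, a secreted plasma protein of the liver, was closest to Apoa5 (0.095), Clec2d to Apoc1 (0.098), Hebp1 to Apoa2 (0.12), Hsbp1l1 to Apoa1 (0.13) and Elf3 to Apoa4 (0.29). Elf3 was a low gene, with 0.371 CPM on average in NTC-Veh and 2.71 in NTC-CCl4. Hsbp1l1 (2.88 and 1.29 CPM) and Zswim5 (3.63 and 3.04 CPM) were also low in these groups. The added 0.5 CPM shrinks the differences of such low genes most, so their likeness to abundant members depends on it. These likenesses rest on groups that differ, and were not tested.

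The other genes of the pathway were described as lists. For their counts after CCl4, 26.6% of all tested genes fell and 27.4% rose in NTC livers, and 28% and 29% in sgBap1 livers. By library size alone 62.1% of all genes passed in NTC livers, 80.5% of them higher. In sgBap1 livers 64.7% passed on that scale, 78.3% of them higher. Between guides 0.406% of all genes passed under vehicle and 0.329% under CCl4. Without sgBap1-CCl4 replicate 2, no count of a list in sgBap1 livers after CCl4 differed by more than 1 gene in either direction. Of 16 other tested genes with an apolipoprotein name or a tie to lipoproteins, 9 fell and 3 rose with CCl4 in NTC livers (4 and 6 by library size alone). In sgBap1 livers 9 fell and 2 rose (7 and 3). The median log2 fold changes were -0.59 and -0.63, beside 0.03 and 0.04 over all genes. The list includes a receptor and genes grouped by name, such as Apoo, Apool and the Apol genes, so these are not counts of particle proteins alone. The genes with the smallest p were Apobr, a receptor for particles with Apob (2.59, SE 0.13, adjusted p = 9.07e-07 in NTC livers), Apol7a (-2.48, SE 0.22, adjusted p = 1.44e-05), Saa4, a serum amyloid protein of high-density lipoprotein (-1.40, SE 0.14, adjusted p = 1.90e-05), and Pon1, the paraoxonase of high-density lipoprotein (-1.95, SE 0.24, adjusted p = 7.65e-05). In sgBap1 livers these were 2.24, -3.26, -1.88 and -1.83, and all 4 passed. Under vehicle 1 of the 16 was higher with sgBap1, Apol9a (0.87, SE 0.14, adjusted p = 0.0347), with 120.3 and 120.0 CPM against 68.4 and 62.9. This call was kept in 8 of 9 alternatives but in only 2 of 10 fits without a mouse, those without sgBap1-CCl4 replicate 1 or 2. The adjusted p was 0.0506 to 0.21 in the others.

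Among 18 genes of particle assembly and secretion, 5 fell and 6 rose in NTC livers (4 and 9 by library size alone). In sgBap1 livers 7 fell and 6 rose (5 and 10), and the medians were -0.16 and 0.0035. Over all genes on the TMM scale 26.6% fell and 27.4% rose in NTC livers, and 28% and 29% in sgBap1 livers. The NTC counts of this list on the TMM scale were near those shares. By library size alone 62.1% and 64.7% of all genes passed in NTC and sgBap1 livers, 80.5% and 78.3% of them higher. Dgat2, which makes triglyceride, fell from 637 and 659.6 CPM to 172 to 221 in NTC livers (-1.76, SE 0.13, adjusted p = 3.63e-06). Sar1b, a GTPase of the vesicles that carry lipoprotein out of the endoplasmic reticulum (-1.37, SE 0.11, adjusted p = 7.04e-06), and Cideb, which helps to lipidate the particles (-1.23, SE 0.16, adjusted p = 0.000114), also fell. Apobec1, the enzyme that edits Apob RNA, rose (0.84, SE 0.11, adjusted p = 0.000113). Mttp, the protein that loads lipid onto Apob, was at 362 and 382 CPM in NTC-Veh and 298 to 300.1 in NTC-CCl4 (-0.31, SE 0.13, adjusted p = 0.0563), and passed in sgBap1 livers (-0.40, adjusted p = 0.0206), though by library size alone it was 0.16 and 0.081.

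Sort1, a sorting receptor that binds Apob on its way out of the hepatocyte, was the 1 gene of this list that passed in the comparison of guides. It was at 24.3 and 22.7 CPM in NTC-Veh, 8.29 and 9.58 CPM in sgBap1-Veh, 27.1, 32.1 and 28.8 in NTC-CCl4, and 23, 24.6 and 20.2 in sgBap1-CCl4. The sgBap1-Veh mice were the low ones, and the log2 fold change under vehicle was -1.40 (SE 0.13, adjusted p = 0.012). The call was lost without NTC-Veh replicate 2 (-1.45, adjusted p = 0.0593) or sgBap1-Veh replicate 1 (-1.30, adjusted p = 0.0529). Under CCl4 it was -0.37 (SE 0.10, adjusted p = 0.143), and the interaction was 1.02 (SE 0.16, adjusted p = 0.0694). The interaction passed in 2 of 8 alternatives, the DESeq2 Wald test (adjusted p = 0.000105) and no filter beyond 1 count (adjusted p = 0.0443).

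Of 26 genes of remodelling and uptake, 12 fell and 5 rose in each genotype, with medians of -0.44 and -0.46. By library size alone 9 fell and 11 rose in NTC and 10 and 10 in sgBap1 livers. On that scale 62.1% and 64.7% of all genes passed in NTC and sgBap1 livers, 80.5% and 78.3% of them higher. Over all genes on the TMM scale 26.6% fell and 27.4% rose in NTC livers, and 28% and 29% in sgBap1 livers. Lipg, endothelial lipase, fell (-2.89, SE 0.17, adjusted p = 1.40e-06 in NTC livers and -3.82, SE 0.17, adjusted p = 3.53e-07 in sgBap1 livers), as did Abcg5, a sterol exporter into bile (-1.69 and -1.85, SE 0.17 in both). Lrp8, a receptor for Apoe, rose from a low level (4.26, SE 0.40, adjusted p = 1.51e-05 in NTC livers), from 0.191 and 0.111 CPM to 2.54 to 3.41. None of the 26 passed in either comparison of guides with edgeR.

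Of 25 transcription factors and cofactors that regulate apolipoprotein genes, 18 fell and none rose in NTC livers and 15 fell and none rose in sgBap1 livers, with medians of -0.73 and -0.60. By library size alone these counts were 7 lower and 3 higher, and 6 lower and 7 higher. On that scale 62.1% and 64.7% of all genes passed in NTC and sgBap1 livers, 80.5% and 78.3% of them higher. Over all genes on the TMM scale 26.6% fell and 27.4% rose in NTC livers, and 28% and 29% in sgBap1 livers. Mlxipl, the carbohydrate-responsive factor ChREBP, fell most clearly (-1.97, SE 0.17, adjusted p = 7.46e-06 in NTC and -2.62, SE 0.17, adjusted p = 1.77e-06 in sgBap1 livers), and Cebpa, the factor C/EBP alpha, fell in both (-1.56, SE 0.19, adjusted p = 6.42e-05 and -1.92, SE 0.19, adjusted p = 1.68e-05). Hnf4a, whose core motif is marked above, did not pass, at -0.25 (SE 0.13, adjusted p = 0.125) and -0.21 (SE 0.13, adjusted p = 0.194), and at 0.22 and 0.26 by library size alone.

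In the comparisons of guides, 1 of these 25 passed under each treatment. Srebf1, a factor that drives fatty acid synthesis, was higher with sgBap1 under vehicle (0.90, SE 0.16, adjusted p = 0.0487), with 627 and 665 CPM against 350.0 and 340.2. It passed in 6 of 9 alternatives and in 2 of 10 fits without a mouse, those without NTC-CCl4 replicate 1 or sgBap1-CCl4 replicate 2. Foxo1, a factor that insulin shuts out of the nucleus, was higher with sgBap1 under CCl4 (0.86, SE 0.11, adjusted p = 0.0189), with 51.4 to 54.8 CPM against 26.8 to 33. It passed in all 9 alternatives and in 6 of 10 fits without a mouse, and missed without NTC-CCl4 replicate 1, 2 or 3 or sgBap1-CCl4 replicate 1, with an adjusted p of 0.063 to 0.092. Of 15 other secreted hepatocyte proteins, 10 fell and 1 rose in NTC livers (6 and 3 by library size alone). In sgBap1 livers 9 fell and 1 rose (5 and 4), and the medians were -0.75 and -0.59. Over all genes on the TMM scale 26.6% fell and 27.4% rose after CCl4 in NTC livers, and 28% and 29% in sgBap1 livers. By library size alone 62.1% and 64.7% of all genes passed in NTC and sgBap1 livers, 80.5% and 78.3% of them higher. Rbp4, the retinol carrier, was at -1.34 (SE 0.15, adjusted p = 3.90e-05), Plg, plasminogen, at -1.08 (SE 0.16, adjusted p = 0.000237) and F2, prothrombin, at -1.05 (SE 0.16, adjusted p = 0.000351) in NTC livers.

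**Figure D5:**
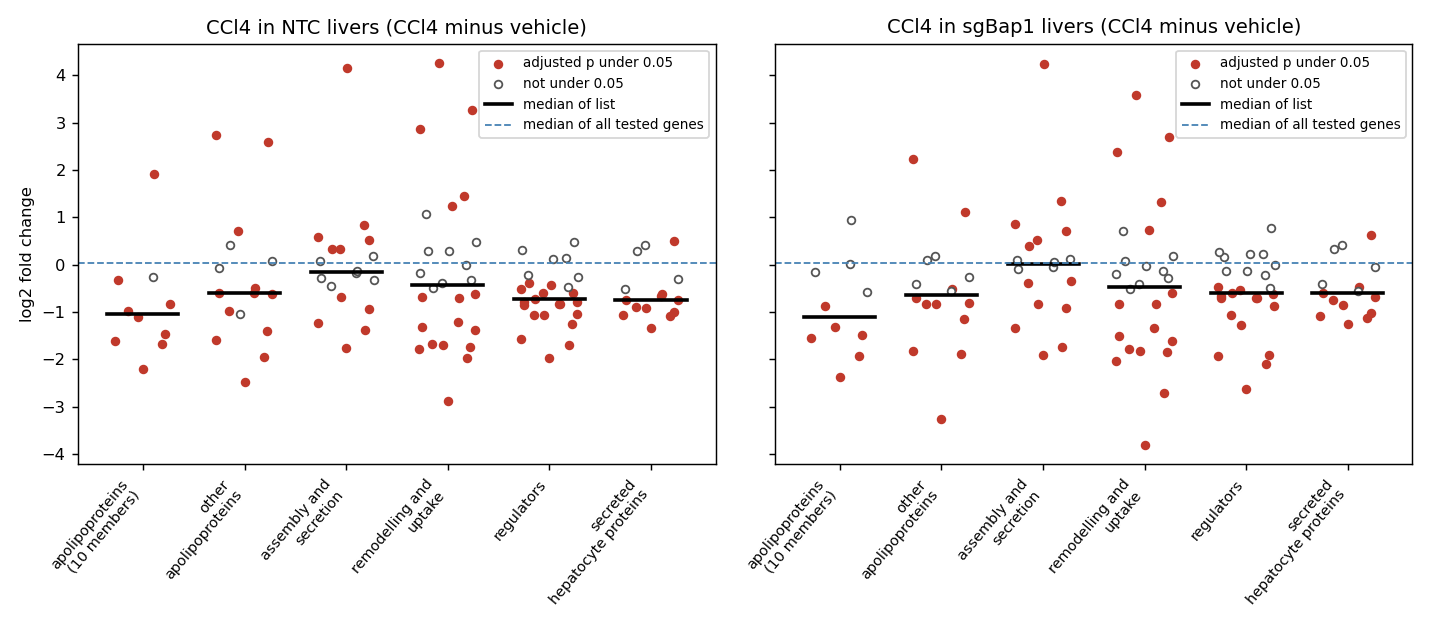
Log2 fold change after CCl4 of every tested gene in 6 lists, in NTC (left) and sgBap1 livers (right). Points are genes, filled where the adjusted p was under 0.05, black bars are list medians and the dashed line is the median of all tested genes. The medians of the 10 apolipoprotein genes are -1.04 and -1.10, and Apoa4 is the filled point above 0 on the left.

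Markers of other cell types moved with the same comparisons. The 7 hepatocyte markers summed to 142927 to 176224 CPM in NTC-Veh and 102219 to 115263 in NTC-CCl4. On the TMM scale 4 of 7 fell in NTC livers, against 26.6% of all genes. In sgBap1 livers 2 of 7 fell, near the 28% of all genes that fell there. By share of all counts the 7 together overlapped in NTC livers and were higher after CCl4 in sgBap1 livers, as given above. The 5 stellate cell markers summed to 72.8 to 79.9 CPM in NTC-Veh and, after CCl4, to 237 to 294 with NTC and 226 to 611 with sgBap1. The 611 came from sgBap1-CCl4 replicate 2, the library with fat-cell RNA. Its Col1a1 was at 402 CPM, against 135 and 71.3 in the other mice of that group and 93.1 to 143 in NTC-CCl4. The 4 cholangiocyte markers summed to 4.46 to 7.81 and 11.9 to 17.4 CPM, the 4 endothelial markers to 101 to 109 and 120.4 to 141, and the 4 lymphocyte markers to 2.52 to 5.06 and 5.58 to 8.67 in NTC-Veh and NTC-CCl4. In sgBap1 mice the cholangiocyte markers summed to 6.24 to 6.70 CPM under vehicle and 12 to 17.8 after CCl4, and the endothelial markers to 100.2 to 135 and 122 to 138. The lymphocyte markers went the other way there, at 7 to 7.64 CPM under vehicle and 5.52 to 6.80 after CCl4, and their vehicle sum was higher than in NTC-Veh. None of the 4 lymphocyte markers passed with edgeR in either comparison of guides. The share of each cell type in the member values was not tested.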

How the data were processed

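Bulk RNA-seq of 10 mouse livers was analysed. Libraries were stranded, from mRNA, and read as 50-base pairs. The authors aligned the reads to GRCm38 with STAR 2.7.6a and deposited 1 table of estimated counts (expected counts) from Salmon 1.4.0, per gene symbol of GENCODE vM25 and not normalized. Each column was matched to a sample by its labels. Of all values 9.22% were not whole, and they were rounded.

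For testing, edgeR 4.0.16 (R 4.3.3) was used. Its function filterByExpr left 17015 genes, TMM scaled the libraries, and glmQLFit (robust, edgeR 4 method) fitted a quasi-likelihood model to all 4 groups. CCl4 against vehicle in each genotype, sgBap1 against NTC under each treatment and the interaction had two-sided tests with Benjamini-Hochberg adjustment over all tested genes and a threshold of 0.05. Intervals are 95% intervals of the fitted log2 fold change. The script was tested on simulated data.

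The alternatives were DESeq2 size factors, library size alone, no filter beyond 1 count, a filter at a mean of 10 counts, a block for the replicate number, DESeq2 1.42.0 (Wald test), limma-voom 3.58.1, only the groups compared, the quasi-likelihood method of edgeR 3 (added after seeing the data), and each mouse left out in turn. Where that left 1 mouse in a group, this mouse was assumed to vary like those of the other groups.

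The members and gene lists were chosen with earlier results of these data known. From each list the genes with the smallest p in a comparison were named, up to 4, and Bap1 as the targeted gene. Some genes under this rule are not reported here. Mttp and Hnf4a, and the markers named singly, were added after their values were seen. Gene positions come from GENCODE vM21 and promoters from RefSeq (GRCm38.p6). Total counts per library were 3.30e+07 to 5.22e+07, and 3 counts are at most 0.112 CPM. TMM factors were 0.786 to 0.851 in vehicle and 1.08 to 1.24 in CCl4 libraries. No batch is named in the labels, so none was tested. Replicates differed by far more than sampling noise, with a mean chi-square per gene of 15.3 to 92.4 within groups.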

Additional observations from a re-analysis of the deposited data

How the results depend on the processing

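In both CCl4 comparisons the directions of Apoa1, Apoa2, Apoa4, Apoa5, Apoc1, Apoc3, Apoe and Apoh held in all 9 alternatives and all 10 fits without a mouse. By library size alone the sign turned for Apob (0.22 in NTC and 0.31 in sgBap1 livers), Apom in NTC livers (0.15), Bap1 in NTC livers (0.28), Mttp (0.16 and 0.081) and Hnf4a (0.22 and 0.26), and the median of all genes shifted with it. The members called after CCl4 numbered 7 to 9 in NTC and 6 to 8 in sgBap1 livers over the alternatives, and 6 to 9 and 6 to 7 without a mouse, and 0 members were called in the other comparisons in every fit.

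Whether the replicate numbers pair the mice could not be decided. After each gene was centred on its group mean, same-numbered mice of different groups correlated at -0.149 to 0.102 and other mice at -0.157 to 0.157. In a group of 2 such centring makes the mice mirror images, so these values cannot show or exclude a pairing. With the replicate block Apoc1 under CCl4 was at -0.0064 between guides and Apom after CCl4 in sgBap1 livers at -0.015, and 9 and 6 members were called after CCl4, as without it. The block left 1 gene of all called between guides under vehicle in place of 69 and 24 under CCl4 in place of 56.

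Counts over all genes were unstable between guides. Under vehicle they were 32 by library size alone, 562 with DESeq2's Wald test, 25 with limma-voom and 27 with only the groups compared, and 0 to 150 without a mouse. Under CCl4 they were 94 with no filter beyond 1 count, 502 with DESeq2's Wald test and 28 with only the groups compared, and 1 to 71 without a mouse. For the interaction, 2, 34 and 420 genes were called by library size alone, with no filter beyond 1 count and with DESeq2's Wald test, and 0 to 7 without a mouse. The cause was not tested.

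With no filter the Apoe interaction was 0.017. Leaving out 1 mouse at a time turned the sign of values near 0. Between guides under vehicle, Apoa2 ran from -0.014 to 0.25, Apoa4 from -0.19 to 0.76, Apoa5 from -0.33 to 0.016, Apoc3 from -0.0075 to 0.41 and Apoe from -0.011 to 0.12. Under CCl4, Apoa2 ran from -0.32 to 0.19, Apoc1 from -0.19 to 0.14, Apoc3 from -0.18 to 0.057, Apoe from -0.041 to 0.13, Apoh from -0.21 to 0.15 and Apom from -0.028 to 0.14. For the interaction, Apoa2 ran from -0.45 to 0.057, Apoa5 from -0.23 to 0.13, Apob from -0.040 to 0.21, Apoe from -0.097 to 0.077 and Apoh from -0.12 to 0.24. After CCl4 in sgBap1 livers, Apom ran from -0.073 to 0.092 and Bap1 from -0.036 to 0.15.

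With 2 or 3 mice in a group, depth did not limit these abundant genes, and the spread between mice did.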
